A study of Homo sapiens with 12 samples.

Results

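Structure-specific nucleases cut DNA at branches, flaps and crossed strands rather than at a sequence. The set described here holds 9 genes for such enzymes, their partner subunits and a scaffold, MUS81, EME1, EME2, SLX4, GEN1, ERCC1, ERCC4, DNA2 and FEN1, picked by gene symbol from the 25343 genes of the count table. All 9 were found and all 9 were among the 14199 genes with enough reads to be tested. The libraries are mRNA sequencing libraries from SW48, a colorectal cancer cell line, and OVK18, an ovarian cancer cell line, both known for microsatellite instability and both expressing Cas9. Cells received the guide sgWRN2, the guide sgWRN3 or the control guide sgCh2-2, and RNA was taken 72 h after transduction. Each of the 6 groups (SW48 sgWRN2, SW48 sgWRN3 and SW48 sgCh2-2; OVK18 sgWRN2, OVK18 sgWRN3 and OVK18 sgCh2-2) had 2 libraries, called A and B. The labels do not say whether A and B came from separate cultures, so the p-values measure only the spread between these libraries, which may be technical.

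WRN is a helicase and exonuclease that unwinds secondary structures ahead of replication forks, and cells with microsatellite instability depend on it. When a fork stalls and is not restarted, nucleases can cut it, trim its reversed arm or separate the crossed strands left after repair, so their action decides between restart, breakage and resolution. Work outside these data has tied MUS81 to chromosome breakage at expanded TA dinucleotide repeats in such cells after WRN loss. The comparisons below ask how much RNA for these enzymes each line held, and whether it differed between cells with a WRN guide and cells with the control guide.

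RefSeq promoter windows (build GRCh38.p14, 250 bases before to 50 after a gene's start) were matched for 8 of the 9 genes. DNA2 was the gene with no entry. EME1, GEN1 and FEN1 had log2 fold changes among the most negative of the set with sgWRN2 in SW48. For that reason stretches of 3 of these windows are shown. Each runs 5′ to 3′ on the + strand from 120 bases before to 20 bases after the start. Capitals mark the letters of 2 searched motifs, TTTCGCGC of the E2F search and the GC box GGGCGG, read as CCGCCC from the opposite strand.
EME1, chr17:50373109-50373248: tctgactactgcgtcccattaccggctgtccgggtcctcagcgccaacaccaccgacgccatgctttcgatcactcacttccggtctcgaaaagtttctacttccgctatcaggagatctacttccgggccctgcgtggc
GEN1, chr2:17753749-17753888: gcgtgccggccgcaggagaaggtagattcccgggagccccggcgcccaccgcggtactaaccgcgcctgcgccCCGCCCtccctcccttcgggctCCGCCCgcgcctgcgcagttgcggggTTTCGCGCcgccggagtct
FEN1, chr11:61792791-61792930: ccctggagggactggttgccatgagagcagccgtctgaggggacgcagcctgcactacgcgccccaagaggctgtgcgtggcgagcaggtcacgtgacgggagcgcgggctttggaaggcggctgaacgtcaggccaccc
E2F motifs (TTTCCCGC, TTTGGCGC, TTTCGCGC or TTTGCCGC, both strands) were found in 1 window of GEN1, at position 2 after the start, and in no other matched window of the set. The same letters occur in 3.31% of 35116 windows. GC boxes were found in windows of MUS81, EME2, SLX4, GEN1 and ERCC1 and occur in 45% of all windows. CCAAT boxes (CCAAT, in 34.6% of windows) were found for MUS81, GEN1 and ERCC1, and the element TTTGAA (15.2% of windows) for EME2 and ERCC1. GEN1 had 2 windows, ERCC1 had 3 and each other matched gene 1, while the shares are per window. The CCAAT box of GEN1 lay in its window that is not shown. The EME1, ERCC4 and FEN1 windows held none of these letters, which says nothing about the factors that act there.

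Library totals lay between 15423162 and 32581625 counts. WRN itself, the gene both WRN guides are named for, had 37.2 and 34.1 CPM (counts scaled to a common library size by TMM) with sgWRN2, 42.3 and 56.9 CPM with sgWRN3, against 91.2 and 111.6 CPM with sgCh2-2 in SW48. In OVK18 it had 22.0 and 21.0 CPM with sgWRN2, 22.2 and 23.0 CPM with sgWRN3, against 32.0 and 39.8 CPM with sgCh2-2. All 8 libraries with a WRN guide were below the controls of their line, as the labels have it; the log2 fold change over both guides passed the test in SW48 (-1.27, SE 0.13, edgeR adjusted p = 0.00409) and did not in OVK18 (-0.71, SE 0.14, edgeR adjusted p = 0.206; DESeq2 adjusted p = 0.00577). RNA left after cutting does not measure protein. In the control libraries, 5 of 8 intestinal markers reached 1 CPM in SW48 and CDX1 had no reads there, and none of the 8 reached 1 CPM in OVK18. Of 8 Müllerian and ovarian markers, 3 reached 1 CPM in SW48 controls and 1 in OVK18 controls, and PAX8, WFDC2 and SOX17 had no reads in OVK18 controls. Of 6 fibroblast markers, 4 reached 1 CPM in OVK18 controls, so the ovarian origin of OVK18 rests on its label.

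With the control guide, the nuclease transcripts spanned a wide range. Per transcript length, the levels in SW48 control libraries (authors' FPKM, mean ± SD, n = 2) ran from FEN1 at 35.1 ± 3.28 and ERCC1 at 16.1 ± 1.81 through DNA2 at 11.5 ± 1.66 and GEN1 at 6.07 ± 0.30 to MUS81 at 3.59 ± 0.15. EME1 (3.20 ± 0.06 FPKM) and ERCC4 (3.14 ± 0.16 FPKM) had overlapping ranges in SW48, and SLX4 (1.27 ± 0.17 FPKM) and EME2 (0.700 ± 0.12 FPKM) were lowest. In OVK18 control libraries ERCC1 led with 39.8 ± 4.48 FPKM, followed by FEN1 at 18.3 ± 2.06, DNA2 at 12.3 ± 0.68, ERCC4 at 9.37 ± 0.35, MUS81 at 7.73 ± 0.38 and GEN1 at 5.18 ± 0.68. SLX4 (2.07 ± 0.17 FPKM) and EME1 (1.90 ± 0.33 FPKM) overlapped in OVK18, and EME2 was again lowest (0.915 ± 0.24 FPKM). All other neighbours in either order had ranges that did not overlap.

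**Figure D1:**
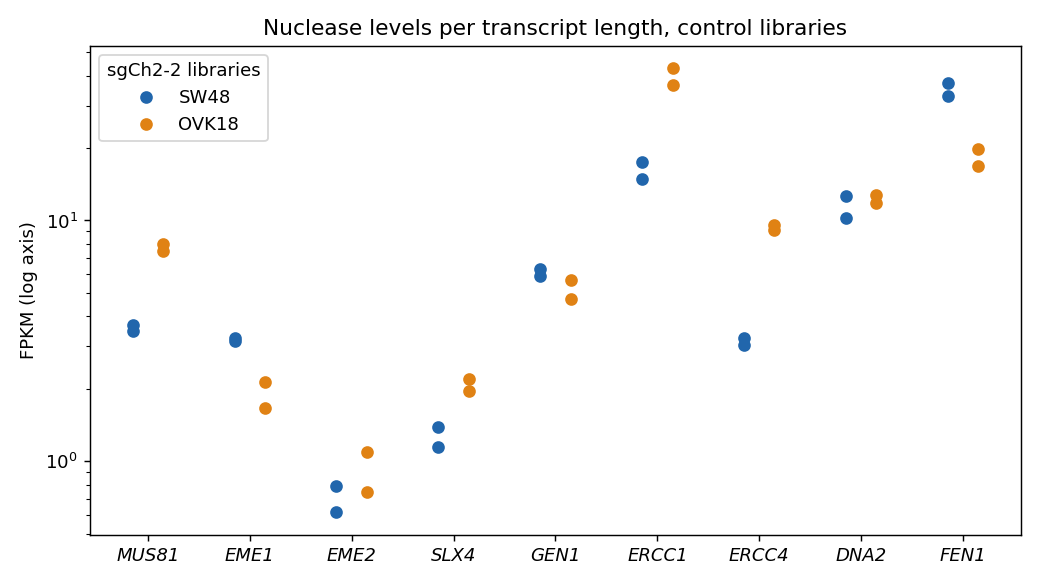
Levels of the 9 nuclease transcripts in control (sgCh2-2) libraries, in FPKM on a log axis, with 1 point per library and 2 libraries per line. FEN1 led in SW48 (mean 35.1 FPKM), ERCC1 led in OVK18 (mean 39.8 FPKM), and EME2 was lowest in both lines.

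FEN1 and EME1 were higher, and MUS81, SLX4, ERCC1 and ERCC4 lower, in SW48 than in OVK18 control libraries. FEN1 cuts the 5′ flaps of Okazaki fragments, and EME1 is the non-catalytic partner through which MUS81 binds its substrates. FEN1 stood at 94.2 and 85.7 CPM in SW48 controls, against 51.4 and 45.7 CPM in OVK18 controls (log2 difference, SW48 minus OVK18, 0.89, SE 0.12, edgeR adjusted p = 2.80e-05). EME1 stood at 8.94 and 9.08 CPM in SW48 controls, against 4.97 and 6.47 CPM in OVK18 controls (0.65, SE 0.17, adjusted p = 0.00518); without control library A of OVK18 the adjusted p was 0.0680. ERCC4, also called XPF, is the catalytic subunit of the nuclease whose DNA-binding subunit is ERCC1. ERCC4 stood at 25.8 and 28.9 CPM in SW48 controls, against 78.8 and 86.7 CPM in OVK18 controls (-1.60, SE 0.16, adjusted p = 1.49e-06). ERCC1 stood at 31.3 and 28.9 CPM in SW48 controls, against 76.0 and 67.9 CPM in OVK18 controls (-1.26, SE 0.14, adjusted p = 4.80e-06). RNA of both subunits of that nuclease was therefore lower in SW48. MUS81 stood at 10.7 and 11.02 CPM in SW48 controls, against 24.4 and 24.1 CPM in OVK18 controls (-1.16, SE 0.18, adjusted p = 9.27e-05). SLX4, the scaffold that docks MUS81-EME1, ERCC4-ERCC1 and SLX1, stood at 12.9 and 10.8 CPM in SW48 controls, against 20.3 and 18.9 CPM in OVK18 controls (-0.72, SE 0.14, adjusted p = 0.000539). EME2 (-0.48), GEN1 (0.20) and DNA2 (-0.12) did not pass the test, with 95% intervals of the log2 difference of -1.42 to 0.45, -0.24 to 0.64 and -0.49 to 0.24. In all, 6 of 9 members passed, 2 higher and 4 lower in SW48, by edgeR, DESeq2 and limma-voom alike. Across all tested genes 68.6% passed in the same comparison by edgeR (68.4% by DESeq2 and 69.5% by limma-voom), 33.9% higher and 34.7% lower in SW48, so the members' share is near the background of 2 unrelated lines.

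Ratios were separate between the lines for MUS81 over EME1 and FEN1 over DNA2, and overlapped for EME1 over EME2 and ERCC1 over ERCC4. The ranges pool control and WRN-guide libraries, and the share of other gene pairs with separate ratios was not tested. MUS81 over EME1, as a ratio of FPKM values over all 6 libraries of a line, had a median of 1.12 in SW48 (0.973 to 1.83) and 4.30 in OVK18 (3.50 to 5.94), and these ranges did not overlap. EME1 over EME2, the alternative partners of MUS81, had a median of 4.64 in SW48 (1.27 to 5.79) and 1.89 in OVK18 (1.77 to 3.25), and these ranges overlapped. ERCC1 over ERCC4 had a median of 5.14 in SW48 (4.19 to 5.74) and 4.54 in OVK18 (3.80 to 7.06), again overlapping, although each gene alone differed between the lines. FEN1 over DNA2, which act on short and long flaps, had a median of 2.84 in SW48 (2.47 to 3.92) and 1.55 in OVK18 (1.26 to 1.73), with no overlap.

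With the WRN guides, FEN1 was the member that fell, in SW48 with sgWRN2. DNA2, GEN1, EME1 and SLX4 lay below both controls in those libraries without passing the edgeR test, and DESeq2 called DNA2 of these. ERCC4 lay above both controls there, and MUS81, ERCC1 and EME2 overlapped them, with no call for ERCC4, MUS81, ERCC1 or EME2. The share of all tested genes placed below or above both controls with 1 guide was not counted. Such placements, here and in the paragraphs on single genes, are therefore descriptions and not results about the members. No member passed with sgWRN3 in SW48 or with either guide in OVK18. WRN itself did not pass the edgeR test there either. Its log2 fold change was -1.03 with sgWRN3 in SW48 (edgeR adjusted p = 0.438, DESeq2 adjusted p = 0.000163). In OVK18 it was -0.74 with sgWRN2 (edgeR adjusted p = 0.0658, DESeq2 adjusted p = 0.00543) and -0.67 with sgWRN3 (DESeq2 adjusted p = 0.821). The lack of an edgeR call in these comparisons therefore does not show a lack of change. DESeq2 called WRN with sgWRN3 in SW48 and with sgWRN2 in OVK18, and no member in either. This does not show a lack of smaller changes.

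**Figure D2:**
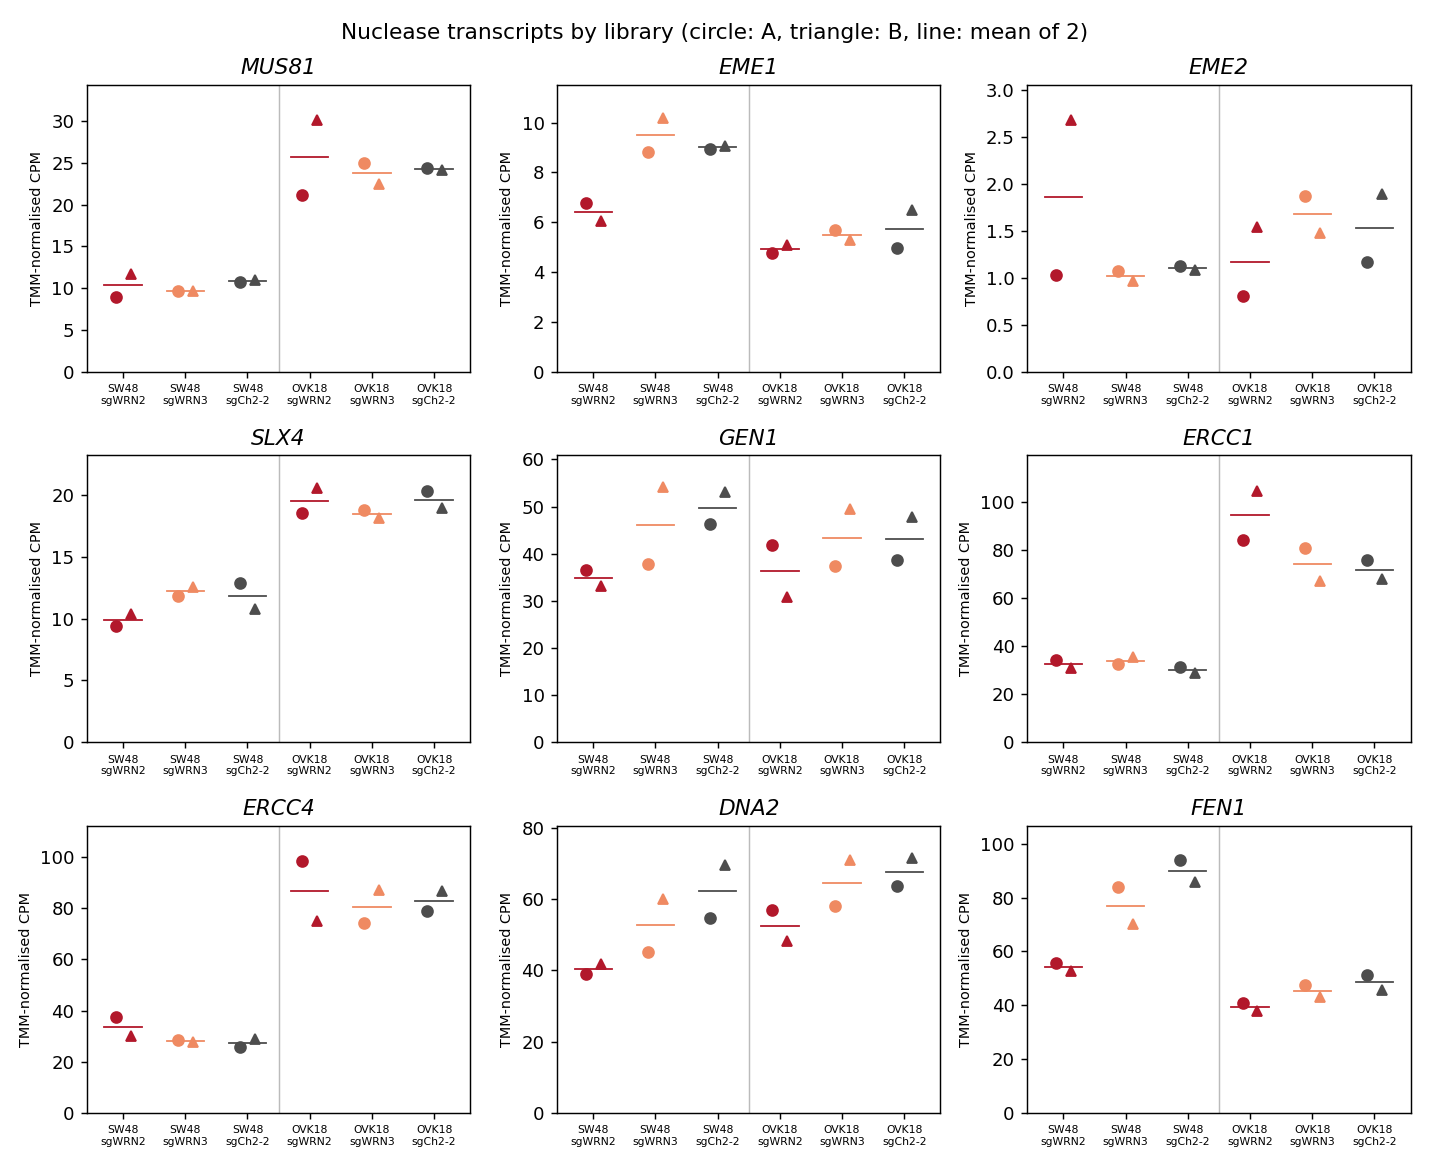
TMM-normalised CPM of the 9 nuclease genes in all 12 libraries, by line and guide; circles are A libraries, triangles B libraries and lines the mean of 2. FEN1 in SW48 with sgWRN2 (55.6 and 52.7 CPM) lies below the SW48 controls (94.2 and 85.7 CPM), and the other 8 members overlap the SW48 controls with at least 1 guide.

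In SW48, FEN1 had 55.6 and 52.7 CPM with sgWRN2, 83.9 and 70.3 CPM with sgWRN3, against 94.2 and 85.7 CPM with sgCh2-2. In OVK18 it had 40.9 and 37.8 CPM with sgWRN2, 47.6 and 42.9 CPM with sgWRN3, against 51.4 and 45.7 CPM with sgCh2-2. All 4 WRN-guide libraries of SW48 were below both controls, those with sgWRN2 by the wider margin, and in OVK18 both sgWRN2 libraries and the sgWRN3 B library were below both controls, with the sgWRN3 A library between them. With sgWRN2 in SW48, FEN1 fell to 60.2% of the control level (log2 fold change -0.73, SE 0.12, 95% interval -0.996 to -0.47, edgeR adjusted p = 0.00520). It was also called by DESeq2 and limma-voom. With 1 of the SW48 sgWRN2 libraries left out the fold change stayed at -0.77 (without A, adjusted p = 0.0533) or -0.71 (without B, adjusted p = 0.0770), past the threshold in neither case. With sgWRN3 in SW48 the fold change was -0.22 (95% interval -0.48 to 0.04, adjusted p = 1). The difference between the guides themselves, sgWRN2 minus sgWRN3, was -0.51 (SE 0.12, adjusted p = 0.0938), so FEN1 is not shown to differ between the guides by edgeR, although DESeq2 called it (adjusted p = 0.00377). In OVK18 the fold change was -0.30 with sgWRN2 (95% interval -0.56 to -0.04, adjusted p = 0.294) and -0.10 with sgWRN3 (95% interval -0.36 to 0.16, adjusted p = 1). Over both guides it was -0.48 in SW48 (SE 0.10, adjusted p = 0.0545) and -0.20 in OVK18 (SE 0.10, adjusted p = 0.99997). The test of the difference between the lines gave -0.28 (SE 0.15, adjusted p = 0.99994), so a response particular to SW48 is not shown.

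DNA2 is a nuclease and helicase that trims long flaps and resects reversed forks, in part together with WRN. In SW48, DNA2 had 39.0 and 41.8 CPM with sgWRN2, 45.1 and 60.2 CPM with sgWRN3, against 54.8 and 69.6 CPM with sgCh2-2. In OVK18 it had 57.0 and 48.1 CPM with sgWRN2, 58.1 and 71.1 CPM with sgWRN3, against 63.6 and 71.6 CPM with sgCh2-2. The sgWRN2 libraries were below both controls in each line, and the sgWRN3 libraries overlapped them. The log2 fold change with sgWRN2 was -0.62 in SW48 (SE 0.17, 95% interval -0.99 to -0.25, edgeR adjusted p = 0.0816; DESeq2 adjusted p = 0.0268) and -0.36 in OVK18 (SE 0.17, 95% interval -0.72 to 0.00042, adjusted p = 0.360). With sgWRN3 it was -0.24 in SW48 (95% interval -0.60 to 0.13) and -0.06 in OVK18 (95% interval -0.43 to 0.30).

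GEN1 cuts Holliday junctions on its own. In SW48, GEN1 had 36.6 and 33.1 CPM with sgWRN2, 37.9 and 54.2 CPM with sgWRN3, against 46.2 and 53.1 CPM with sgCh2-2. In OVK18 it had 41.8 and 30.9 CPM with sgWRN2, 37.3 and 49.5 CPM with sgWRN3, against 38.6 and 47.8 CPM with sgCh2-2. Both SW48 sgWRN2 libraries were below the controls and all other groups overlapped theirs. The log2 fold change with sgWRN2 in SW48 was -0.51 (SE 0.21, 95% interval -0.96 to -0.06, edgeR adjusted p = 0.297), and in OVK18 it was -0.24 (95% interval -0.69 to 0.20).

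MUS81, the catalytic subunit that cuts stalled forks and nicked Holliday junctions, gave no call with either guide. In SW48, MUS81 had 8.96 and 11.7 CPM with sgWRN2, 9.60 and 9.71 CPM with sgWRN3, against 10.7 and 11.02 CPM with sgCh2-2. In OVK18 it had 21.1 and 30.1 CPM with sgWRN2, 25.0003 and 22.5 CPM with sgWRN3, against 24.4 and 24.1 CPM with sgCh2-2. The sgWRN2 libraries of either line lay on both sides of their controls, as did the sgWRN3 libraries in OVK18, while both sgWRN3 libraries of SW48 lay below both controls. Its log2 fold change over both guides was -0.12 in SW48 (95% interval -0.47 to 0.23) and 0.02 in OVK18 (95% interval -0.30 to 0.35); these intervals still hold changes of the size seen for FEN1 in OVK18.

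EME1 had 6.78 and 6.06 CPM with sgWRN2, 8.83 and 10.2 CPM with sgWRN3, against 8.94 and 9.08 CPM with sgCh2-2 in SW48. In OVK18, EME1 had 4.77 and 5.10 CPM with sgWRN2, 5.71 and 5.28 CPM with sgWRN3, against 4.97 and 6.47 CPM with sgCh2-2. In SW48 both sgWRN2 libraries were below both controls and the sgWRN3 libraries lay on either side of them, and in OVK18 the libraries of both WRN guides overlapped the controls. Its log2 fold change in SW48 was -0.49 with sgWRN2 (SE 0.18, 95% interval -0.88 to -0.10, edgeR adjusted p = 0.233) and 0.08 with sgWRN3 (95% interval -0.30 to 0.46), and the guides' difference was -0.57 (SE 0.18, adjusted p = 0.262).

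EME2, the other partner of MUS81, was counted with 16 to 61 reads a library, so its values carry wide counting error. In SW48 it had 1.03 and 2.68 CPM with sgWRN2, 1.07 and 0.965 CPM with sgWRN3, against 1.12 and 1.08 CPM with sgCh2-2. In OVK18 it had 0.806 and 1.53 CPM with sgWRN2, 1.87 and 1.47 CPM with sgWRN3, against 1.17 and 1.89 CPM with sgCh2-2. The SW48 sgWRN2 B library stood above all others of that line, with 42 reads and an exact Poisson interval of 1.93 to 3.62 CPM, against 17 reads and 0.599 to 1.65 CPM in the A library of the same group. Both sgWRN3 libraries of SW48 were below both controls. The log2 fold change with sgWRN2 in SW48 was 0.74 (95% interval -0.24 to 1.72). Over both guides it was 0.31 in SW48, and -0.11 without that B library.

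SLX4 had 9.38 and 10.4 CPM with sgWRN2, 11.9 and 12.6 CPM with sgWRN3, against 12.9 and 10.8 CPM with sgCh2-2 in SW48. In OVK18, SLX4 had 18.5 and 20.5 CPM with sgWRN2, 18.8 and 18.1 CPM with sgWRN3, against 20.3 and 18.9 CPM with sgCh2-2. Its sgWRN2 libraries were below both controls in SW48 and overlapped them in OVK18. Its sgWRN3 libraries overlapped the controls in SW48 and were below both in OVK18. The log2 fold change with sgWRN2 was -0.27 in SW48 (95% interval -0.59 to 0.05) and -0.01 in OVK18 (95% interval -0.31 to 0.29).

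ERCC4 and ERCC1, which together cut 3′ flaps and the damaged strand in excision and crosslink repair, had positive log2 fold changes with sgWRN2 and no call. ERCC4 in SW48 had 37.4 and 29.9 CPM with sgWRN2, 28.3 and 27.8 CPM with sgWRN3, against 25.8 and 28.9 CPM with sgCh2-2. ERCC4 in OVK18 had 98.5 and 74.9 CPM with sgWRN2, 74.1 and 87.4 CPM with sgWRN3, against 78.8 and 86.7 CPM with sgCh2-2. Its SW48 sgWRN2 libraries were above both controls, with a log2 fold change of 0.30 (SE 0.16, 95% interval -0.04 to 0.65, edgeR adjusted p = 0.461). ERCC1 in SW48 had 34.4 and 31.1 CPM with sgWRN2, 32.5 and 35.5 CPM with sgWRN3, against 31.3 and 28.9 CPM with sgCh2-2. There both sgWRN3 libraries were above both controls, and the sgWRN2 libraries overlapped them. ERCC1 in OVK18 had 84.5 and 104.9 CPM with sgWRN2, 81.2 and 67.3 CPM with sgWRN3, against 76.0 and 67.9 CPM with sgCh2-2. In OVK18 the sgWRN2 libraries were above all 4 others, with a log2 fold change of 0.40 (SE 0.13, 95% interval 0.10 to 0.69, edgeR adjusted p = 0.211; DESeq2 adjusted p = 0.0783).

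**Figure D3:**
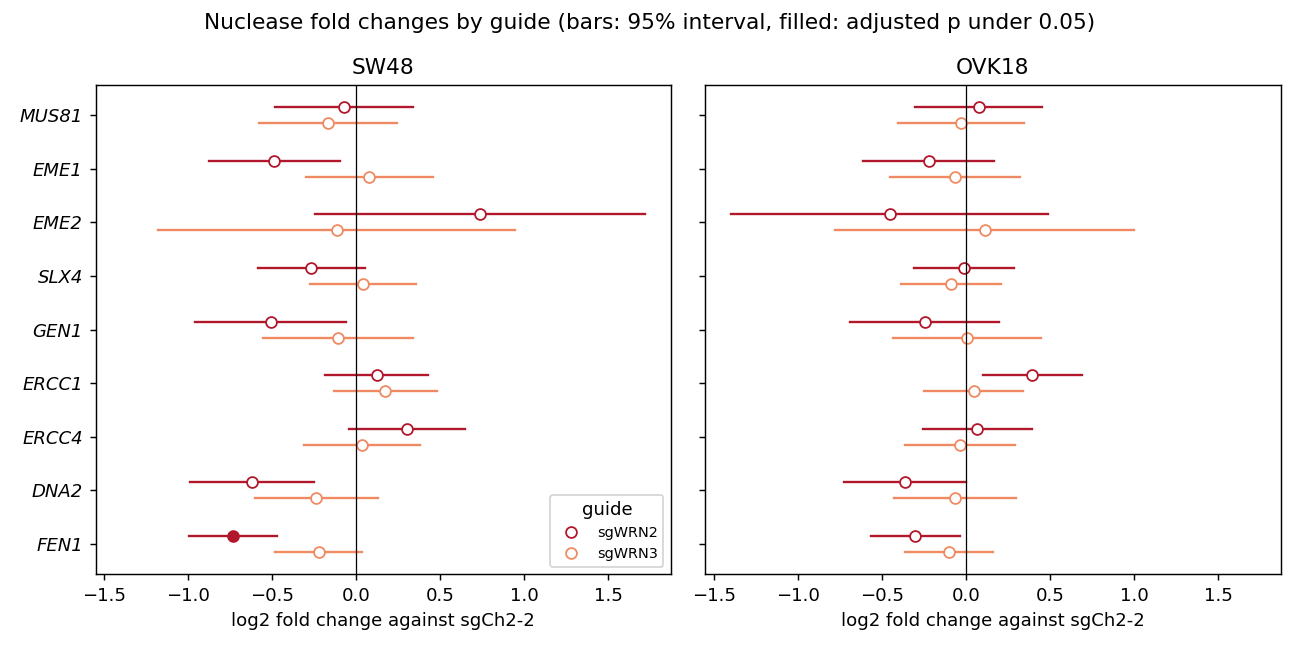
Log2 fold changes of the 9 nucleases with sgWRN2 and sgWRN3 against sgCh2-2 in SW48 and OVK18, with 95% intervals from the edgeR fit; a filled point marks an adjusted p under 0.05. FEN1 with sgWRN2 in SW48 (-0.73) is the 1 filled point, and intervals of all members with sgWRN3 include 0 in both lines.

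Counted over the set, 1 of 9 members passed with sgWRN2 in SW48, where 3.08% of all tested genes passed and 1.95% passed as lower. At an unadjusted p under 0.05 there were 4 members (FEN1, DNA2, EME1 and GEN1), beside 13.1% of all genes. DESeq2 called 2 members (FEN1 and DNA2) beside 5.09% of genes, and limma-voom 1 (FEN1) beside 3.32%. With sgWRN3 in SW48, 0 of 9 passed by edgeR, DESeq2 or limma-voom and 0 had an unadjusted p under 0.05, beside 0%, 0.0634%, 0% and 1.85% of all genes. With sgWRN2 in OVK18, 0 of 9 passed by any of the 3 tools, beside 0.796% of all genes by edgeR, 3.67% by DESeq2 and 1.11% by limma-voom. There, 2 members (ERCC1 and FEN1) had an unadjusted p under 0.05, beside 13.9% of all genes. With sgWRN3 in OVK18 no member passed by edgeR, DESeq2 or limma-voom and none had an unadjusted p under 0.05, beside 0%, 0.00704%, 0% and 0.817% of all genes. Over both guides in SW48, 0 of 9 passed by edgeR (0.866% of all genes), and 1 (FEN1) by each of DESeq2 (2.6%) and limma-voom (1.04%), with 2 members at an unadjusted p under 0.05 (7.84%). Over both guides in OVK18, 0 of 9 passed by edgeR (0.0282% of all genes), DESeq2 (0.256%) or limma-voom (0.0211%), and 0 had an unadjusted p under 0.05 (4.04%).

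The guides set against each other gave 0 of 9 members in SW48 by edgeR (0.944% of all genes) and limma-voom (1.02%) and 1 (FEN1) by DESeq2 (2.6%), with 3 members at an unadjusted p under 0.05 (8.6%). In OVK18 they gave 0 of 9 by edgeR (0.747% of all genes), DESeq2 (4.52%) and limma-voom (1.13%), with 1 member (ERCC1) at an unadjusted p under 0.05 (14.5%). The difference of the guide effects between lines gave 0 of 9 by edgeR (0.0282% of all genes), DESeq2 (0.0775%) and limma-voom (0.0282%), with 0 at an unadjusted p under 0.05 (2.75%). DESeq2 gave EME2 no adjusted p over both guides in either line, with sgWRN2 in OVK18 or between the guides in either line, and its shares are of genes that had one. Median log2 fold changes of the 9 members were -0.27 with sgWRN2 in SW48, -0.11 with sgWRN3 in SW48, -0.22 with sgWRN2 in OVK18 and -0.04 with sgWRN3 in OVK18, beside medians over all tested genes of 0.019, -0.00027, -0.0016 and 0.

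Separation from the controls can also be counted without a test. In SW48 all 4 WRN-guide libraries lay below both controls for 1 of 9 members (FEN1) and above both for 0, beside 5.33% and 6.01% of all tested genes. In OVK18 this was 0 of 9 in either direction, beside 3.84% below and 2.9% above. The share of all genes separated from the controls with 1 guide alone was not counted, so such separations of members are descriptions.

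The S phase genes, 17 genes of DNA replication and nucleotide supply, were read beside FEN1. Their summed level was 1894 and 1773 CPM with sgWRN2, 2488 and 2410 CPM with sgWRN3, against 2729 and 2683 CPM with sgCh2-2 in SW48. In OVK18 it was 1391 and 1301 CPM with sgWRN2, 1522 and 1472 CPM with sgWRN3, against 1609 and 1526 CPM with sgCh2-2. The sgWRN2 libraries were lowest in both lines. Of the 17 genes, 9 fell with sgWRN2 in SW48, where 1.95% of all tested genes passed as lower. The list's median log2 fold change there was -0.68. Among the 9 were RRM2 (-1.03), the small subunit of ribonucleotide reductase, and CDC6 (-0.89), a loader of the MCM helicase. With sgWRN2 in OVK18 2 fell, CDC6 (-0.79) and the helicase subunit MCM3 (-0.45), beside 0.796% of all genes called in either direction. With sgWRN3 none did in either line by edgeR, DESeq2 or limma-voom. At an unadjusted p under 0.05 there were 2 with sgWRN3 in SW48 (1.85% of all genes) and 0 in OVK18 (0.817%). In the control libraries 15 of the 17 passed as higher in SW48, beside 33.9% of all genes. The list's median difference, SW48 minus OVK18, was 0.96 on the log2 scale. FEN1 was also higher in SW48.

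Across the 12 libraries, with each line's mean set to 0, log2 CPM of FEN1 followed the mean of the 17 S phase genes with Pearson r = 0.985. The value was 0.748 for EME1, 0.683 for DNA2, 0.670 for SLX4 and 0.533 for GEN1, 0.039 for MUS81, -0.29 for EME2, -0.34 for ERCC1 and -0.65 for ERCC4. These are descriptions over 12 libraries that share guides and lines, so they repeat the group differences above. Fewer cells in S phase and less RNA per cell cannot be told apart in such libraries, and the part of the S phase genes in the FEN1 result was not tested.

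**Figure D4:**
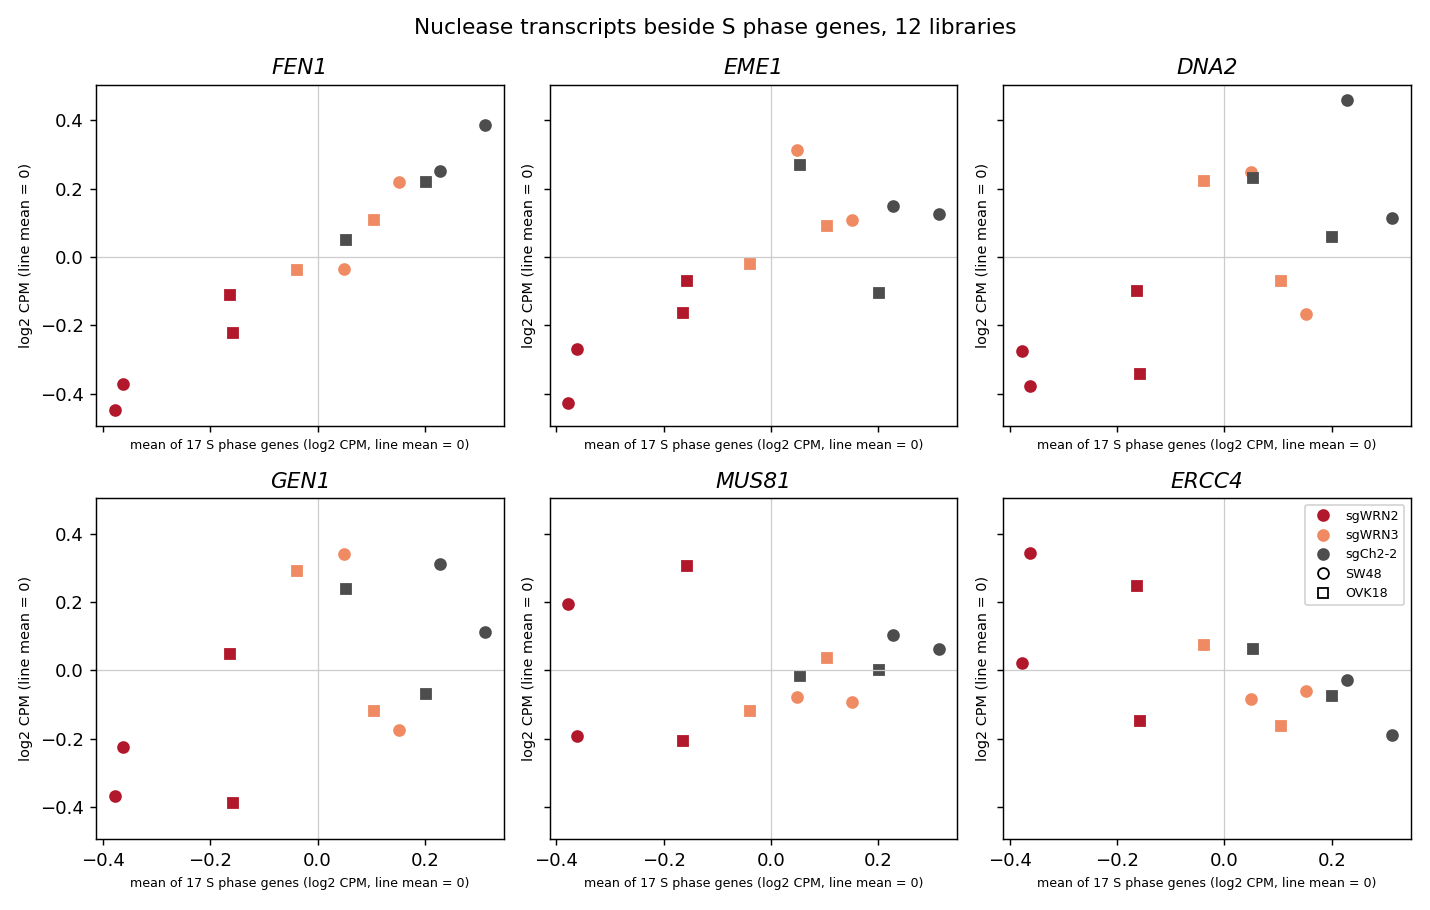
Log2 CPM of 6 nuclease genes (vertical) against the mean log2 CPM of 17 S phase genes (horizontal), each with the line's mean set to 0, for 12 libraries coloured by guide, with circles for SW48 and squares for OVK18. FEN1 lies close to a line (r = 0.985), MUS81 shows no trend (r = 0.039) and ERCC4 runs the other way (r = -0.65).

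Among the members themselves, computed in the same way, DNA2 and GEN1 ran closest together (r = 0.929). EME1 followed DNA2 (0.702), GEN1 (0.698) and FEN1 (0.687). MUS81 did not follow its partner EME1 (-0.08) and was nearer to EME2 (0.594), and ERCC1 did not follow ERCC4 (-0.12). SLX4 and ERCC4 ran in opposite directions (-0.79), as did MUS81 and ERCC4 (-0.65). Part of this pattern lies between the A and B libraries rather than between guides. GEN1 was higher in B than in A by 0.51 and 0.20 on the log2 scale with sgWRN3 and sgCh2-2 in SW48 and by 0.41 and 0.31 in OVK18, and DNA2 did the same by 0.42 and 0.34 in SW48 and by 0.29 and 0.17 in OVK18. With sgWRN2, GEN1 was instead lower in B, with a difference, B minus A, of -0.14 in SW48 and -0.44 in OVK18. MUS81 was higher in B with sgWRN2 by 0.39 in SW48 and 0.51 in OVK18, and EME2 by 1.31 and 0.86. What set the A and B libraries apart was not tested.

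Of 14198 other tested genes, those most like FEN1 over the 12 libraries were CDKN2C (r = 0.992), TUBA1B (0.984) and UHRF1 (0.982). DNA2 was most like HSPB11 (0.979), PRIMPOL (0.975) and MCM8 (0.971), and GEN1 was most like ATAD5 (0.972) and CASP8AP2 (0.969). ERCC4 was most like BLOC1S2 (0.980), CDC37L1 (0.974) and HIF1A (0.969). The remaining members had their highest value with LINC00959 for MUS81 (0.925), PATL1 for EME1 (0.930), GAS8 for EME2 (0.940), EHBP1L1 for SLX4 (0.913) and HHLA3 for ERCC1 (0.926). The highest of so many values is large by selection, so these names are descriptions.

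Other nucleases and partners of the set were read from lists chosen with earlier results of these data known. Of 12 tested further DNA repair nucleases, 2 fell with sgWRN2 in SW48, EXO1 (-0.92, SE 0.12, edgeR adjusted p = 0.00107), which resects DNA ends, and DCLRE1B (-0.59, SE 0.12, adjusted p = 0.0211), known as Apollo. Over both guides in SW48, EXO1 fell by 0.56 on the log2 scale (adjusted p = 0.0196). The list's median with sgWRN2 in SW48 was -0.17, and 1.95% of all tested genes passed as lower there. SLX1A and SLX1B had 0 counts in every library and were not tested, although SLX1B had a mean of 2.41 FPKM in SW48 controls. Of 16 partners and genes of junction dissolution, 3 fell with sgWRN2 in SW48: BLM (-0.86, adjusted p = 0.00453), the RecQ helicase that dissolves double Holliday junctions, FANCD2 (-0.86, adjusted p = 0.00245) and its ubiquitin-conjugating enzyme UBE2T (-0.54, adjusted p = 0.0200). The list's median there was -0.27. No gene of either list was called in OVK18 with either guide or with sgWRN3 in SW48 by edgeR, DESeq2 or limma-voom. With sgWRN2 in OVK18, 2 of 12 nucleases and 5 of 16 partners had an unadjusted p under 0.05, beside 13.9% of all genes. With sgWRN3 in SW48, 2 of 16 partners did, beside 1.85% of all genes.

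In mitosis the kinases CDK1 and PLK1 promote the binding of MUS81-EME1 to SLX4, and regulators of this step were read in the same way. Of 5 mitotic regulators, 4 fell with sgWRN2 in SW48, the cyclin CCNB1 (-1.13, edgeR adjusted p = 0.000257), PLK1 (-1.10), the CDK1-activating phosphatase CDC25C (-0.94) and CDK1 (-0.97). Over all tested genes 1.95% passed as lower with sgWRN2 in SW48. Over both guides in SW48 3 of the 5 fell, beside 0.866% of all genes called in either direction. With sgWRN3 in SW48 none did by edgeR, DESeq2 or limma-voom, and the median was -0.33. There, 3 of the 5 had an unadjusted p under 0.05, beside 1.85% of all genes. In OVK18 none fell with either guide by those tools. With sgWRN2 in OVK18, 2 of the 5 had an unadjusted p under 0.05, beside 13.9% of all genes.

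**Figure D5:**
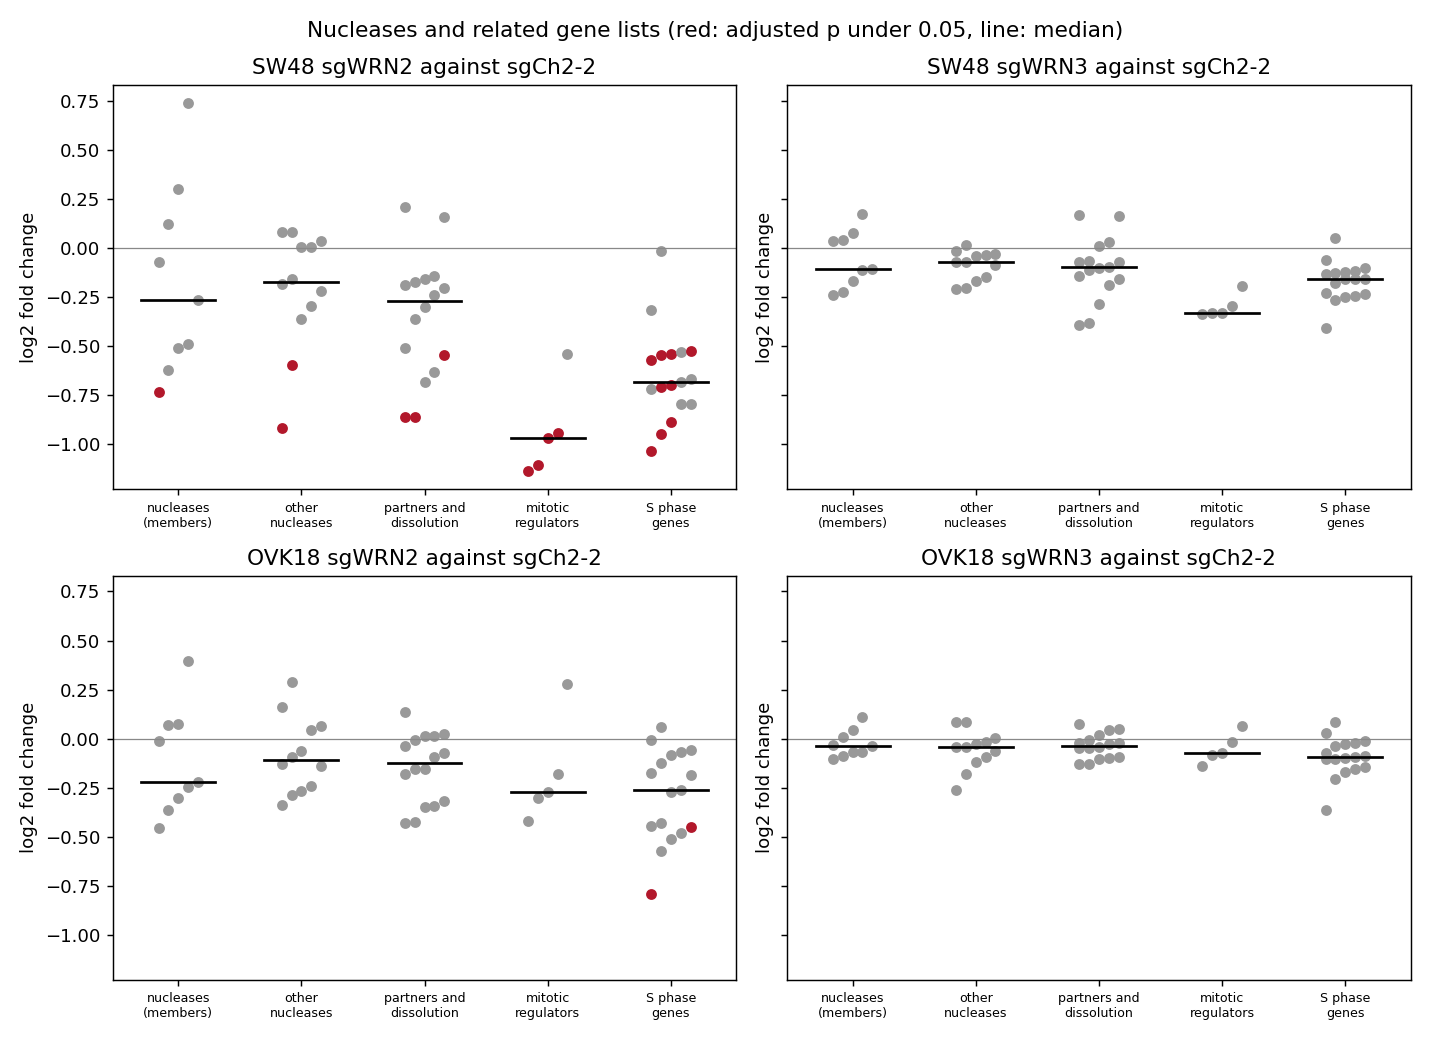
Log2 fold changes against sgCh2-2 for the 9 nucleases and 4 related gene lists, by line and guide; each point is a gene, red points have an edgeR adjusted p under 0.05 and black lines are list medians. With sgWRN2 in SW48 the mitotic regulators (median -0.97) and S phase genes (median -0.68) lie lower than the nucleases (median -0.27), and no list has a red point with sgWRN3.

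Several members overlap other genes in the GENCODE v29 annotation. The strand setting of the counting is not given in the sources used here, so reads of the overlap may be shared or left out. FEN1 overlaps TMEM258 on the opposite strand and FADS2 on its own. With sgWRN2 in SW48 the log2 fold change was 0.07 for TMEM258 and -0.84 for FADS2 (edgeR adjusted p = 0.141), and FADS2 had a control level of 6.15 CPM in SW48 and 325.8 CPM in OVK18, while FEN1 was the higher in SW48. GEN1 overlaps SMC6 (-0.12 with sgWRN2 in SW48), EME1 overlaps LRRC59 (-0.23), and ERCC1 overlaps CD3EAP, with a log2 fold change of -0.03 with sgWRN2 in OVK18, and FOSB (0.72 there, adjusted p = 0.247). MUS81 overlaps CFL1 and EFEMP2, and EME2 overlaps SPSB3. Between the control libraries, the log2 difference, SW48 minus OVK18, had the member's sign for some overlapping genes. These were LRRC59 (0.74, EME1 0.65), CFL1 (-0.47) and EFEMP2 (-2.31, MUS81 -1.16). It had the opposite sign for SPSB3 (0.78, EME2 -0.48), SMC6 (-1.04, GEN1 0.20), CD3EAP (1.03, ERCC1 -1.26), TMEM258 (-0.45) and FADS2 (-5.70, FEN1 0.89). FOSB had 0.007. SLX4, ERCC4 and DNA2 overlap noncoding RNAs or pseudogenes alone. How many reads fell in the overlaps was not tested.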

How the data were processed

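The authors deposited a table of counts per gene for 12 libraries, taken here as raw read counts. The submitters' processing notes name bcl2fastq 2.18, STAR 2.5, Cufflinks 2.2.1 and build hg19, without saying which made what. The other table deposited by the authors has non-integer values with no unit in its header, treated here as FPKM because Cufflinks, which those notes list, reports that unit. FPKM values served for levels per transcript length and for alternatives alone. Annotation and strand settings are not given in the sources used here. The 92 spike-in features, all at 0, were left out.

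Tests on the counts used edgeR 4.0.16 under R 4.3.3, with TMM scaling, filterByExpr over 6 groups (14199 genes), 1 coefficient per group, a robust quasi-likelihood fit, 10 contrasts and Benjamini-Hochberg adjustment over all tested genes, with calls at adjusted p under 0.05. "Both guides" averages the sgWRN2 and sgWRN3 coefficients and subtracts the control. The SE divides the log2 fold change by the root of its F statistic, and intervals are at 95%. Correlations use log2 CPM with a prior count of 2. Poisson intervals cover counting error only. Total counts per library, 15423162 to 32581625, set the precision of low genes such as EME2. A and B libraries differed beyond counting error in every group (chi-square per gene 8.68 to 24.97). Alternatives used DESeq2 1.42.0, limma 3.58.1 (voom), other scalings and filters, FPKM with pseudocounts 1 and 0.1, a replicate block, and each library left out.

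Named genes are the 9 members and WRN, up to 4 called genes of a list by p, and the 3 genes most like each member, of which some are given. The rule for the 9 members names symbols and uses no measured value, but members and lists were chosen with earlier results of these data known. Guide sequences and protein sequences were not used here.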

Additional observations from a re-analysis of the deposited data

How the results depend on the processing

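In SW48 with sgWRN2, 1 member was called in the fit as reported, against 3 without a filter on low counts (DNA2, FEN1 and GEN1), 2 with DESeq2, 3 with limma on log2(FPKM + 1) and 2 on log2(FPKM + 0.1); leaving out 1 library gave 0 to 1, with 0 without either SW48 sgWRN2 library. FEN1 there kept its direction in all 22 alternatives and passed in 20 of them, with leave-one-out values of -0.83 to -0.70. Over both guides in SW48, 0 members were called as reported, against 1 (FEN1) with library size alone, with a mean of at least 5 CPM, with DESeq2 and with limma-voom, and 2 without a filter; leaving out 1 library gave 0 to 1, with 1 without either OVK18 sgWRN2 library. FEN1 there passed in 7 of 24 alternatives. Between the guides in SW48, 0 became 1 without a filter, at 5 CPM and with DESeq2. Over all genes, DESeq2 called 709 and the fit without a filter 688 in place of 437 with sgWRN2 in SW48, and 298 and 292 in place of 123 over both guides there. Between the lines at control, EME1 lost its call without OVK18 sgCh2-2 A (0.46, adjusted p = 0.0680).

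Changes of sign came in members with no call. Without the 4 sgWRN2 libraries, the values over the guide that remained (sgWRN3), and those with a replicate block added, were -0.031 and -0.034 for MUS81, 0.11 and 0.10 for EME2, 0.0071 and 0.0049 for GEN1 and -0.036 and -0.037 for ERCC4 in OVK18, and 0.079 and 0.071 for EME1, -0.11 and -0.11 for EME2 and 0.042 and 0.036 for SLX4 in SW48. MUS81 in OVK18 was -0.0015 with limma-voom. Leave-one-out values in OVK18 over both guides ran from -0.11 to 0.14 for MUS81, -0.32 to 0.072 for EME1, -0.46 to 0.24 for EME2, -0.092 to 0.0036 for SLX4, -0.26 to 0.054 for GEN1 and -0.087 to 0.11 for ERCC4. In SW48 they ran from -0.11 to 0.58 for EME2 and -0.24 to 0.011 for SLX4, and between the lines at control from -0.31 to 0.034 for DNA2. The cause was not tested.

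The labels do not say that the letters A and B mark a shared batch, and B minus A differences over genes correlated at 0.331 to 0.413 among the sgWRN3 and sgCh2-2 groups of both lines and at 0.351 between the sgWRN2 groups, but at -0.304 to 0.022 between an sgWRN2 group and any other. With a replicate block, FEN1 with sgWRN2 in SW48 was -0.73 (edgeR adjusted p = 0.0110), and the counts of called members were the same in every comparison; over all genes 265 were called in place of 437 with sgWRN2 in SW48, and 28 in place of 123 over both guides. Without the sgWRN2 libraries and with the block, GEN1 and DNA2 were also called between the lines at control. A replicate block with the letters of OVK18 sgWRN2 crossed was chosen after seeing the data. For sgWRN2 in OVK18 it gave 0 called members and 273 called genes, in place of 113 without a block. The effects of block and crossing are not separated by these counts. Groups of 2 libraries limit what can be called, and EME2, at 16 to 61 reads, most.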
